A study of Arabidopsis thaliana with 18 samples.

Results

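The genes described here are 33 Arabidopsis genes whose transcripts were low after 8 h of light in wild-type seedlings but had fallen little or not at all after 2 h. They were chosen from wild-type (WT) values, as the probe sets naming 1 locus whose mean log2 intensity at 2 h of light minus that in the dark was at least -0.5 and whose difference at 8 h was at most -1.5. The rule could take 6512 such probe sets of the 6847 in the deposited table, with 2 clock loci left out by the rule. Of these, 311 were at or below -1.5 at 8 h, and the other 278 of them had already passed below -0.5 at 2 h. The 33 genes lie on chromosomes 1 (8 genes), 2 (6 genes), 3 (6 genes), 4 (7 genes) and 5 (6 genes).

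Transcripts were measured on 18 Affymetrix ATH1 arrays, which carry short oligonucleotide probes, with RNA of whole seedlings in the Col-0 background grown on medium without sucrose. The mutant jmj17-1, affected in the histone H3K4 demethylase gene JMJ17, and WT were each sampled after 4 days of dark (3 arrays a genotype) and after 4 days of dark followed by 2, 4 or 8 h of light (2 arrays each). All groups share the dark growth, and no group stayed in the dark for the added hours, so hours of light and hours of age cannot be told apart. In whole seedlings, fewer cells of a type and less RNA per cell cannot be told apart either. The labels do not say whether replicates came from separate batches of seedlings, so p-values here speak of array-to-array spread alone, and that spread may be technical. JMJ17 itself was not analysed here, and the genotypes are those of the labels. Values were assigned to samples by the titles in the deposited table. A second deposited table pairs 16 of the 18 arrays with other titles, and which pairing is right is not settled, so every group value below holds under the first. The authors' own log fold changes of jmj17-1 against WT in the dark equal the group means under the first (largest difference 1.3e-06). They were given beside the same titles, so they do not settle which pairing is right. Under the second, members lower in jmj17-1 at 8 h against dark number 0 of 33, with 0.00 percent of all 22810 probe sets called, and at 4 h 0 of 33 (0.912 percent).

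A seedling grown in the dark elongates its hypocotyl, keeps its cotyledons closed and makes no chlorophyll, and light reverses this programme. Elongation needs a wall that loosens and is rebuilt: xyloglucan endotransglucosylase/hydrolases (XTHs) cut and rejoin xyloglucan, pectinesterases modify pectin, and arabinogalactan proteins lie at the wall and plasma membrane. Ethylene, made from ACC by ACC synthase and ACC oxidase, acts on the hypocotyl and apical hook of dark-grown seedlings. Several wall and calcium-binding genes, the touch genes, are known to respond within minutes to handling, touch or other disturbance.

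All arrays were alike in median intensity (144 to 161). One array, the second of jmj17-1 in the dark, correlated less well with its group (0.986) than the other 17 arrays did with theirs (0.993 to 0.998). Its summed intensity over the 11 measured chlorophyll synthesis genes was the highest of the dark jmj17-1 arrays, which ran from 5828 to 11965, and the dark WT arrays ran from 5854 to 6021. At 8 h the same sum was 17632 to 18599 in jmj17-1 and 19106 to 19609 in WT. Of 10 root markers 4 were measured, and their summed intensity was 557 to 577 in jmj17-1 at 8 h against 573 to 603 in jmj17-1 in the dark, and 496 to 515 in WT at 8 h against 568 to 606 in WT in the dark. The 1 measured of 8 markers of dividing cells, CDKB2;1, had 197 to 213 in jmj17-1 at 8 h against 265 to 317 in jmj17-1 in the dark, and 180 to 184 in WT at 8 h against 328 to 349 in WT in the dark. No intensity of the 6847 probe sets was at 0 on any array (lowest 3.22). A level above 0 thus does not show that a cell type was present. The part of these cell types in the changes below was not tested. Here and in the gene lists below, measured means held by a probe set naming 1 locus among the 6847 of the deposited table. The authors selected these 6847, and other probe sets of the array were not looked up for the lists.

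The label of these genes, falling only late, held for some of them only. In WT, 11 of the 33 members were above dark at 2 h, by 0.45 to 2.22 on the log2 scale, and 22 were below dark, by -0.50 to -0.16. In WT at 2 h, 11 of the 33 were higher than dark without overlap (33.3 percent, against 41.3 percent of all probe sets). Another 20 were lower without overlap (60.6 percent, against 51.9 percent of all probe sets). Only 1 member, AT2G34300, lay within 0.25 of the dark level at 2 h. The members showed 2 courses in WT. The 11 peaked at 2 h and were below dark at 8 h. The 22 were slightly lower at 2 h and much lower at 8 h. This split cannot be read as a property of the genes, since the deposited table holds none that stayed near dark at 2 h in jmj17-1. Of 38 probe sets outside that table that met the same WT thresholds, 19 lay within 0.25 of dark at 2 h in WT. At 4 h, 28 members were lower and 2, XTR6 and TCH3, higher in WT without overlap (45.8 percent and 34.9 percent of all probe sets), and at 8 h all 33 were lower (53.4 percent of all probe sets lower, 35.1 percent higher). These WT values chose the members and are given with no test.

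**Figure D1:**
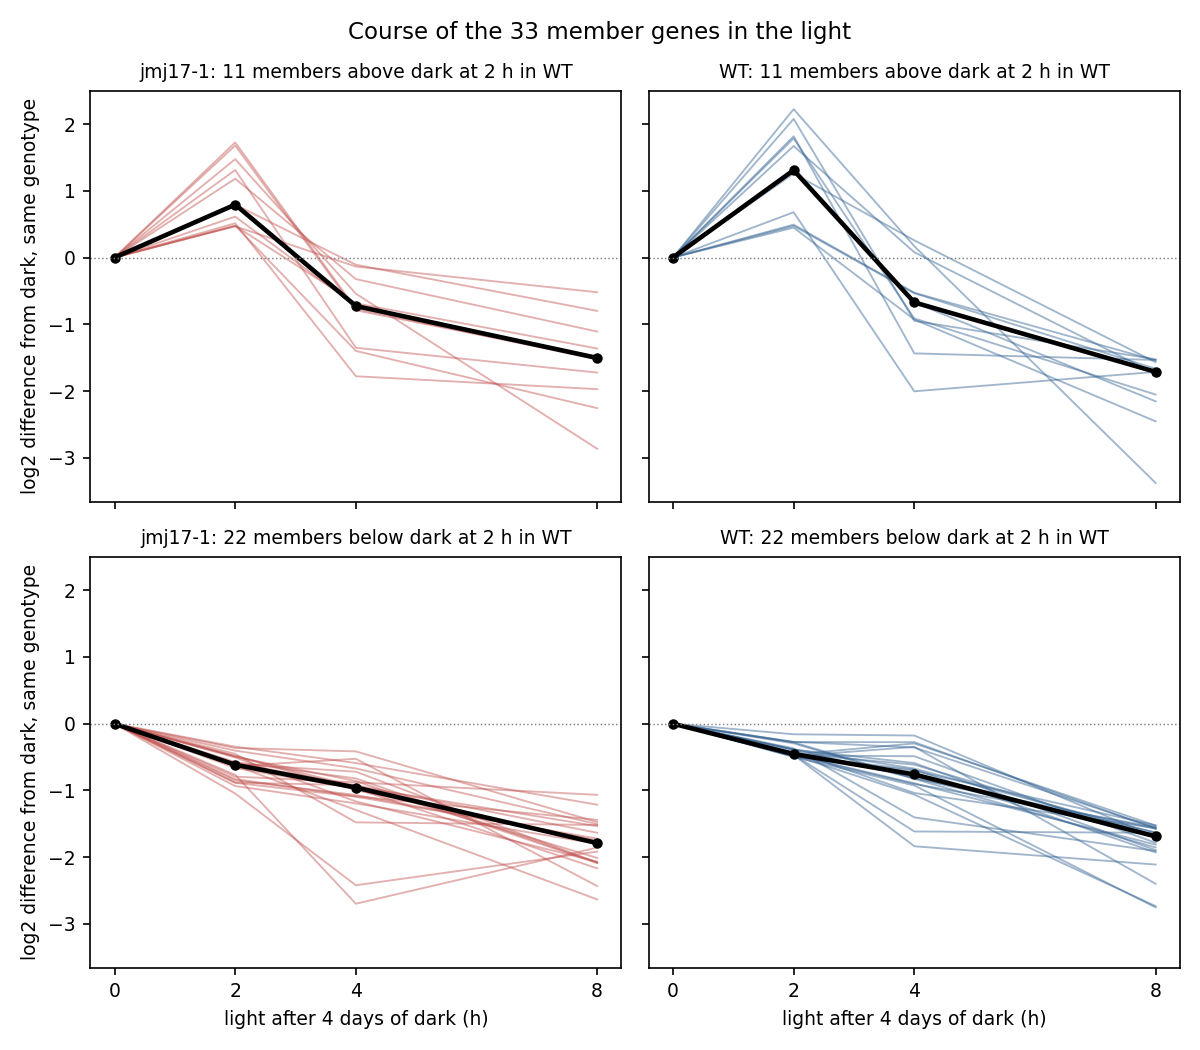
Log2 difference from the dark mean of the same genotype (vertical axis) against hours of light (horizontal axis) for the 33 members. Each thin line is 1 member and the thick line is the median: jmj17-1 is on the left and WT on the right, the 11 members above dark at 2 h in WT are in the upper panels and the other 22 in the lower panels. The median of the 11 stood at 0.79 in jmj17-1 and 1.31 in WT at 2 h, and at -1.504 in jmj17-1 and -1.71 in WT at 8 h.

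All 33 members had the same sign at 2 h in both genotypes. The share of all probe sets with the same sign was not computed, so this count is not read as a trait of the members. In jmj17-1, the 11 members above dark in WT lay 0.47 to 1.72 above dark at 2 h, and the 22 others lay -1.05 to -0.34 below it, with no overlap between the jmj17-1 groups for any of the 33 (42.9 percent of all probe sets were higher and 57.1 percent lower without overlap). The deposited list sets this last count. None of its 6847 probe sets overlapped between jmj17-1 at 2 h and in the dark, and the smallest difference there was 0.249 in size. Genes that did not respond at 2 h in jmj17-1 are thus not among the members, and jmj17-1 at 2 h against dark is not tested here. Of the 33 members, 15 were below -0.5 at 2 h in jmj17-1. Had the same thresholds been applied to jmj17-1, 24 genes would have met them, and 11 of these are members (45.8 percent of the 24, 33.3 percent of the 33).

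The jmj17-1 arrays at 4 h and 8 h played no part in choosing the members and were tested. After 8 h of light, 33 of 33 members were lower in jmj17-1 than in jmj17-1 in the dark (limma, adjusted p under 0.05 over all 6847 probe sets), while 47.7 percent of all probe sets were lower and 31.1 percent higher. The median member stood at -1.72 and the median of all probe sets at -0.19 on the log2 scale. All probe sets here means the 6847 that the authors selected. Over all 22810 probe sets of the second deposited table, with its columns matched to samples by their values, 25.5 percent were lower. All 33 members were lower in that fit too. After 4 h, 31 of 33 were lower, where 44.4 percent of all probe sets were, with a median of -0.92 for the members and -0.14 for all. From 2 h to 8 h in jmj17-1, 32 of 33 members were called lower, where 31.3 percent of all probe sets were. The 11 early-peak members are in the deposited table with high jmj17-1 values at 2 h, which the table's selection shares, so nothing is read from their part of that count. Of the other 22, 21 were lower, with a median of -1.10. The dark jmj17-1 arrays are shared with that selection as well, while the change from 4 h to 8 h uses no array of it. From 4 h to 8 h, 27 members fell and 2 rose, against 20.0 percent and 14.8 percent of all probe sets, with medians of -0.71 and -0.02. At 4 h the median member had reached 50.4 percent of its 8 h change in jmj17-1. Without the second dark jmj17-1 array, all 33 stayed lower at 8 h (median -1.65) and 29 at 4 h.

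**Figure D2:**
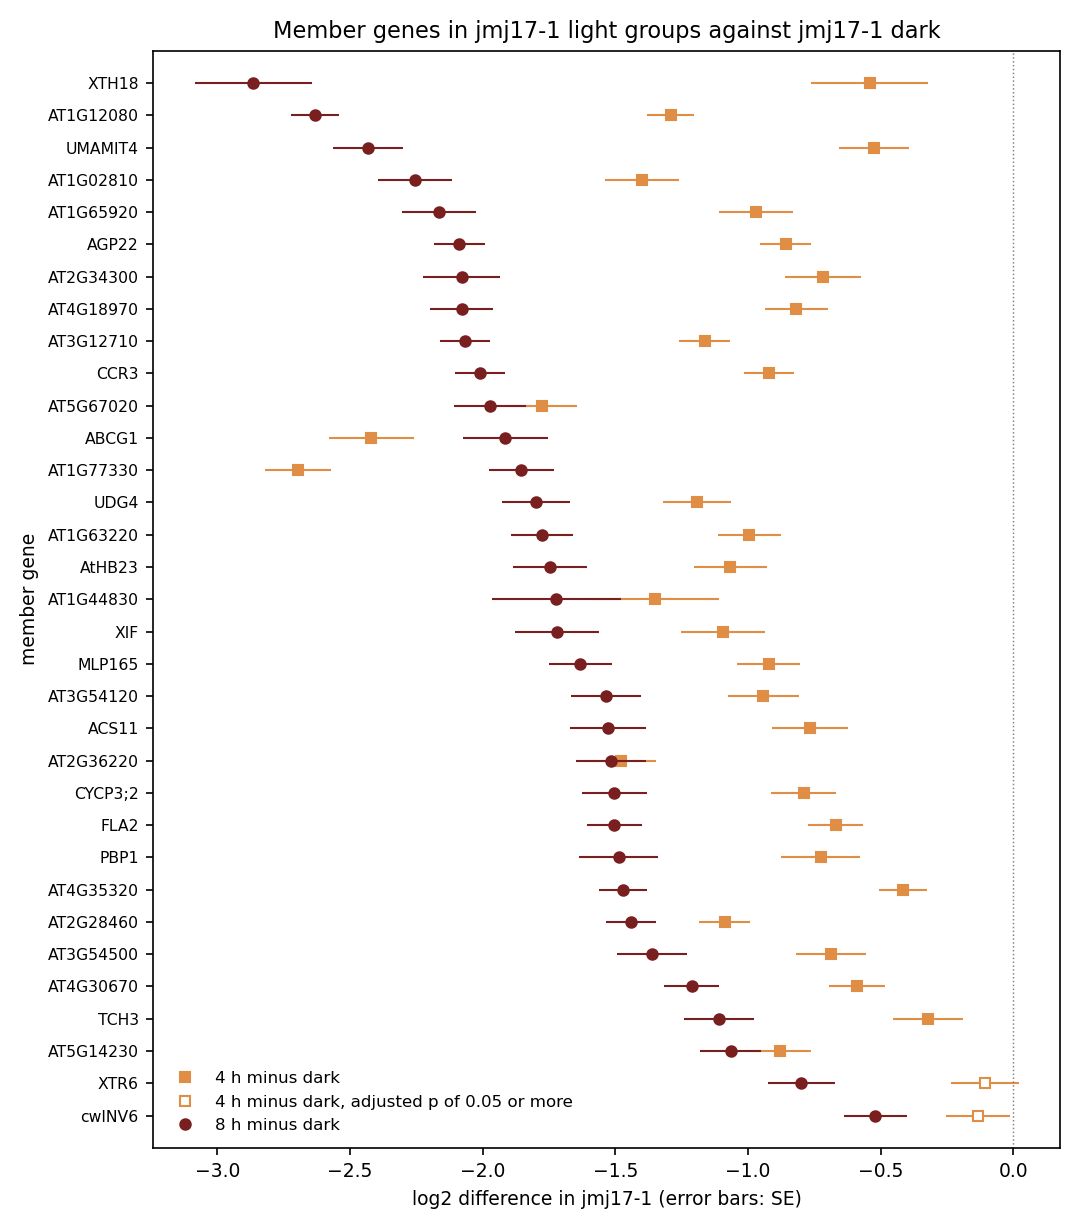
Log2 difference (horizontal axis) of each of the 33 members (vertical axis) in jmj17-1 at 4 h (squares) and 8 h (circles) of light minus jmj17-1 in the dark, with the standard error of the fit as bars (2 light arrays and 3 dark arrays). Filled symbols passed the test and the 2 open squares, XTR6 and cwINV6, did not. Most circles lie left of their squares, and for AT1G77330 and ABCG1 the 4 h value is the lower one.

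Members with a known role at the cell wall or in its carbohydrates, grouped by hand with no test, number 7: 2 XTHs, a pectinesterase, 2 arabinogalactan proteins, a wall invertase relative and UDG4, which makes the UDP-glucuronate used for wall polysaccharides. In the gene ontology terms of the deposited table, 4 of the 33 members (12.1 percent) carry the term cell wall, against 2.84 percent of the 6512 genes the rule could take, and 5 (15.2 percent) carry extracellular region, against 8.28 percent. The 4 with the term cell wall are AT1G02810, XTH18, XTR6 and cwINV6. Another 4 (AGP22, AT1G12080, AT1G77330 and FLA2) carry brassinosteroid biosynthetic process, against 1.20 percent. This term is the annotation's, and the roles given below for these 4 genes are other ones or not settled. Only terms carried by at least 4 members were looked at. The term nucleus is carried by 9 members (27.3 percent against 37.2 percent) and membrane by 7 (21.2 percent against 30.7 percent), and no share was tested.

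XTH18 (AT4G30280) encodes an XTH and was furthest below dark at 8 h in WT. Its intensity in jmj17-1 was 392, 822 and 528 on the dark arrays, 1654 and 1432 at 2 h, 374 and 387 at 4 h, and 86.2 and 67.0 at 8 h. In WT it was 491, 460.1 and 502 in the dark, 2318 and 2199.9 at 2 h, 460.1 and 644 at 4 h, and 49.0 and 44.3 at 8 h. Both genotypes thus had a peak at 2 h well above every dark array and a level at 8 h well below every one. In jmj17-1, XTH18 was 7.29 times lower at 8 h than in the dark (log2 difference -2.87 ± 0.22 (SE, n = 2 and 3), limma adjusted p = 1.41e-08). Between 4 h and 8 h it fell by 2.32 ± 0.24 (adjusted p = 6.43e-06). Its change at 4 h against dark, -0.54 ± 0.22 (adjusted p = 0.0363), rested on the dark array that stood apart, where XTH18 was highest: without it the value was -0.26 (adjusted p = 0.157). The call was also lost without the first or the second jmj17-1 array at 4 h (adjusted p = 0.129 and 0.0958).

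XTR6 (AT4G25810), also known as XTH23, took the same course at smaller size. In jmj17-1 it had 219, 255 and 270.0 in the dark, 474 and 386 at 2 h, 204 and 257 at 4 h, and 150.4 and 134 at 8 h. Its WT levels were 264, 247 and 264 in the dark, 605 and 630.2 at 2 h, 291 and 327 at 4 h, and 78.8 and 96.1 at 8 h. At 4 h the jmj17-1 arrays overlapped the dark arrays, while both WT arrays lay above the WT dark arrays. XTR6 fell by 0.80 ± 0.13 in jmj17-1 at 8 h against dark (adjusted p = 3.51e-05), and its change at 4 h was -0.11 ± 0.13 (adjusted p = 0.448). Its jmj17-1 fall at 8 h was the second smallest of the 33.

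Of 29 loci in the list of expansins and XTHs 21 were measured, XTH18 and XTR6 among them. Of the other 19, in jmj17-1 at 8 h against dark, 12 were lower and 6 higher, where 47.7 percent of all probe sets were lower and 31.1 percent higher (median of the 19 -1.19). TCH4, another touch-induced XTH, was also high at 2 h, 1.70 above dark in jmj17-1 and 2.07 in WT. Unlike XTH18 and XTR6, it was still above dark at 8 h in jmj17-1, by 1.16 ± 0.10 (adjusted p = 3.86e-08). XTH15 was low from the start, at -2.85 in jmj17-1 and -2.37 in WT at 2 h.

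AT1G02810 encodes a pectinesterase. In jmj17-1 its intensity was 56.7, 64.5 and 72.8 in the dark, 78.5 and 102 at 2 h, 22.1 and 26.9 at 4 h, and 12.4 and 14.6 at 8 h. In WT it was 63.5, 60.2 and 66.6 in the dark, 82.5 and 90.6 at 2 h, 32.2 and 34.5 at 4 h, and 10.3 and 13.006 at 8 h. The 2 h arrays lay above and the 4 h and 8 h arrays below all dark arrays in both genotypes. In jmj17-1 it fell by 2.26 ± 0.14 at 8 h against dark (adjusted p = 1.25e-09). At 8 h both genotypes had it in the lowest 5 percent of all intensities, as were those of ACS11 and AtHB23 in both and PBP1 in WT, so the exact size of these falls is not established.

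AGP22 (AT5G53250), an arabinogalactan protein gene, was among the brightest members and fell without an early rise. Its jmj17-1 arrays had 4039, 4308 and 4233 in the dark, 2951 and 2995 at 2 h, 2306 and 2317 at 4 h, and 1091 and 890.5 at 8 h. Its WT arrays had 3754, 3965 and 3793 in the dark, 2465 and 2997 at 2 h, 1948 and 2095 at 4 h, and 592 and 548 at 8 h. Each later time lay below all arrays of the time before it in both genotypes. AGP22 fell by 2.09 ± 0.10 in jmj17-1 at 8 h against dark (adjusted p = 5.63e-11) and fell by 1.23 ± 0.11 between 4 h and 8 h (adjusted p = 1.19e-06). At -0.497 in WT at 2 h it is also the member closest to the threshold for that time, followed by AT4G30670 at -0.493. FLA9 and SPT, just outside it, both stood at -0.51.

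FLA2 (AT4G12730), a fasciclin-like arabinogalactan protein gene, ran much like AGP22. It had 3087, 3511 and 3355 in jmj17-1 in the dark, 2531 and 2478 at 2 h, 2151 and 2015 at 4 h, and 1272 and 1073 at 8 h. In WT it had 2886, 3244 and 3079 in the dark, 2226 and 2469 at 2 h, 1860.0 and 2235 at 4 h, and 870.2 and 783 at 8 h. In jmj17-1 the groups of successive times did not overlap, and in WT those of 2 h and 4 h did. FLA2 fell by 0.67 ± 0.10 in jmj17-1 at 4 h (adjusted p = 3.17e-05) and fell by 1.504 ± 0.10 at 8 h (adjusted p = 3.65e-09).

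**Figure D3:**
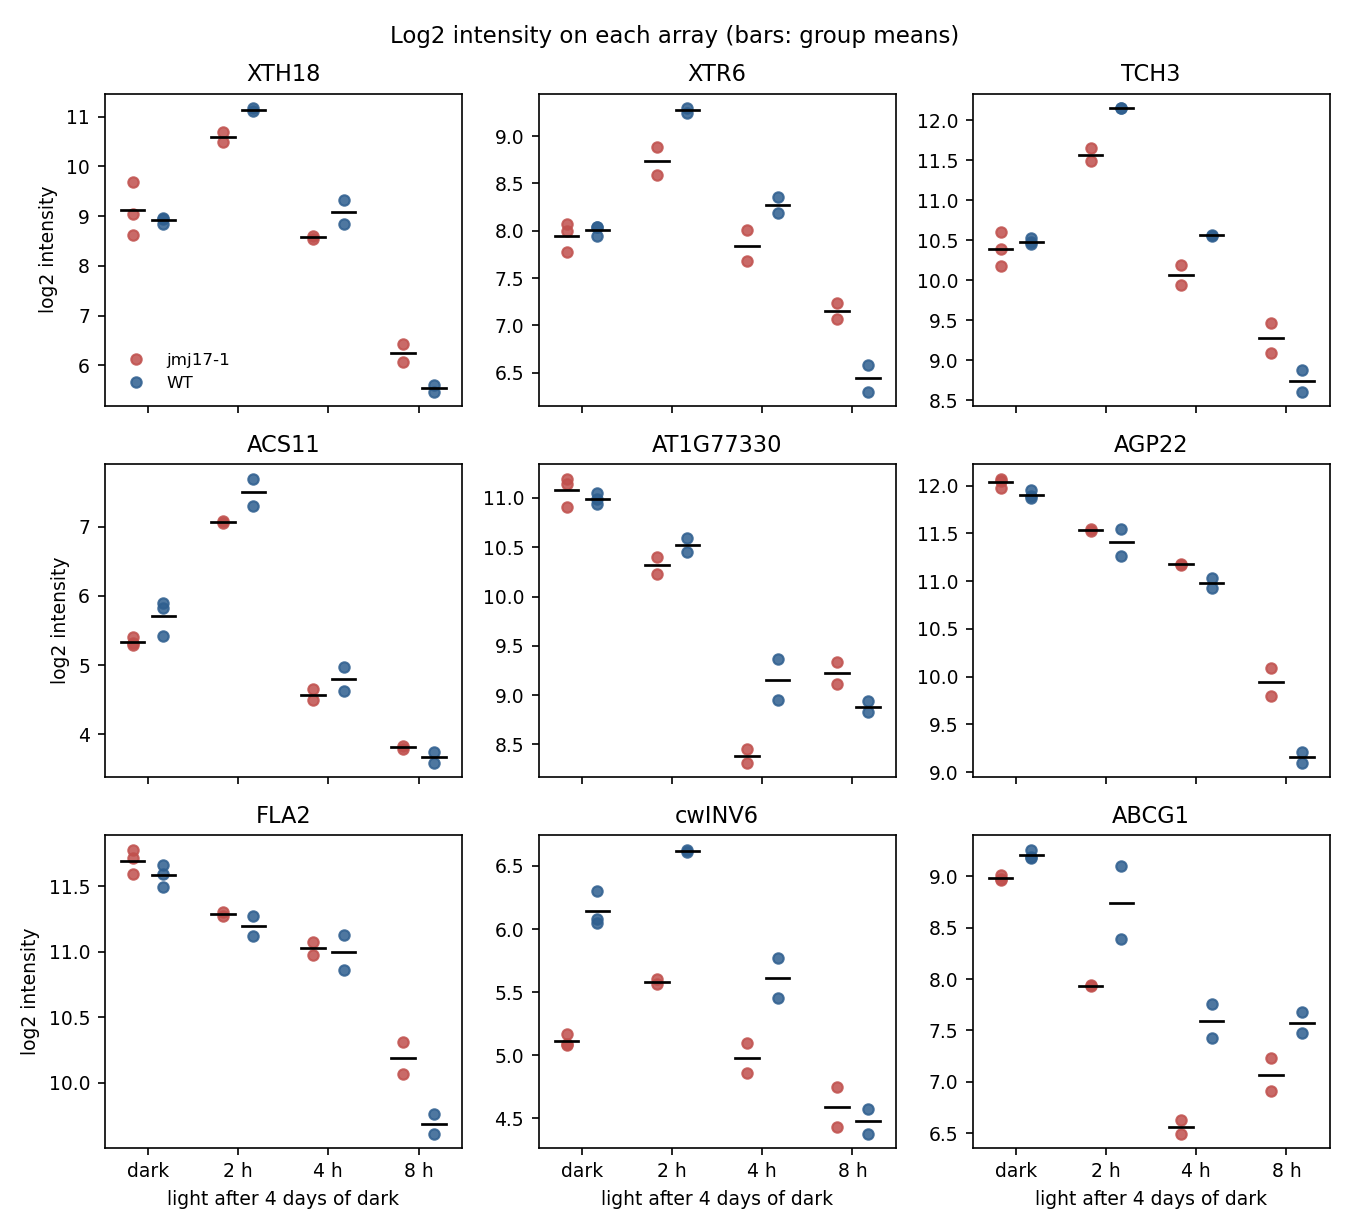
Log2 intensity (vertical axes) on each array for 9 members after 4 days of dark and 2, 4 or 8 h of light (horizontal axes). Points are arrays, jmj17-1 to the left of WT at each time, and bars are group means. XTH18, XTR6, TCH3, ACS11 and cwINV6 peak at 2 h, AGP22 and FLA2 step down, and AT1G77330 and ABCG1 are lowest in jmj17-1 at 4 h.

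Genes of ethylene synthesis were present with 2 members of opposite early course. ACS11 (AT4G08040) encodes an ACC synthase. In jmj17-1 it had 39.1, 39.8 and 42.6 in the dark, 135 and 132 at 2 h, 22.5 and 25.2 at 4 h, and 13.9 and 14.2 at 8 h. The WT arrays had 59.6, 42.9 and 56.9 in the dark, 158 and 208 at 2 h, 24.8 and 31.5 at 4 h, and 13.3 and 12.02 at 8 h. It peaked at 2 h in both genotypes and was already below every dark array at 4 h. ACS11 fell by 1.53 ± 0.14 in jmj17-1 at 8 h against dark (adjusted p = 1.28e-07).

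AT1G77330 encodes an ACC oxidase, ACO5, which carries out the last step of ethylene synthesis. Its jmj17-1 arrays had 1919, 2346 and 2259 in the dark, 1351 and 1203 at 2 h, 351 and 318 at 4 h, and 648 and 554 at 8 h. Its WT arrays had 1966, 2117 and 2028 in the dark, 1401 and 1547 at 2 h, 493 and 659.8 at 4 h, and 490.0 and 454 at 8 h. In jmj17-1 the lowest level was at 4 h, with no overlap with 8 h, whereas both WT arrays at 8 h were below both at 4 h. It was 6.48 times lower at 4 h than in the dark in jmj17-1 (-2.70 ± 0.12, adjusted p = 1.28e-10), rose by 0.84 ± 0.13 from 4 h to 8 h (adjusted p = 0.000297), and stood at -1.86 ± 0.12 at 8 h (adjusted p = 2.66e-09). AT1G44830, which encodes a transcription factor of the ethylene response factor type, had 253 and 200.04 at 2 h and 35.4 and 21.4 at 8 h in jmj17-1, against 66.4, 134 and 84.4 in jmj17-1 in the dark. There it fell by 1.72 ± 0.24 at 8 h (adjusted p = 1.08e-05), with no call between 4 h and 8 h (-0.37 ± 0.27, adjusted p = 0.302).

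Calcium-linked signalling was represented by TCH3 and PBP1, both above dark at 2 h. AT1G63220, a calcium-dependent lipid-binding protein gene, was below dark at 2 h, at -0.48 in jmj17-1 and -0.45 in WT. TCH3 (AT2G41100) encodes a calmodulin-like protein known for its induction by touch. It had 1155, 1548 and 1346 in jmj17-1 in the dark, 3214 and 2873 at 2 h, 979.6 and 1171 at 4 h, and 708 and 545 at 8 h. In WT it had 1398, 1419 and 1473 in the dark, 4558 and 4546 at 2 h, 1506 and 1515 at 4 h, and 469 and 389 at 8 h. The WT arrays at 4 h were just above the WT dark arrays, while in jmj17-1 those of 4 h overlapped the dark range. TCH3 fell by 1.11 ± 0.13 in jmj17-1 at 8 h against dark (adjusted p = 1.69e-06). Its value at 4 h was -0.32 ± 0.13 (adjusted p = 0.0362), and -0.22 without the dark array that stood apart (adjusted p = 0.133) and -0.20 without the first 4 h jmj17-1 array (adjusted p = 0.307). Without the third dark jmj17-1 array it was -0.32 (adjusted p = 0.0644).

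PBP1 (AT5G54490) encodes a small calcium-binding protein that interacts with the kinase PINOID, a regulator of auxin transport. Its intensity in jmj17-1 was 48.0, 63.4 and 54.2 in the dark, 91.6 and 76.7 at 2 h, 36.9 and 29.7 at 4 h, and 19.8 and 19.3 at 8 h. In WT it was 51.7, 75.9 and 65.4 in the dark, 151 and 165 at 2 h, 39.1 and 40.7 at 4 h, and 14.4 and 14.2 at 8 h. Both WT arrays at 2 h were well above both jmj17-1 arrays of that time. In jmj17-1 it fell by 1.49 ± 0.15 at 8 h against dark (adjusted p = 2.47e-07). The list of 16 measured auxin response genes holds no member, and 13 of its genes were lower and 1 higher in jmj17-1 at 8 h, where 47.7 percent of all probe sets were lower and 31.1 percent higher (list median -1.34). IAA2 in that list came close to the course of the members, at -0.35 in jmj17-1 and -0.09 in WT at 2 h and -1.46 in jmj17-1 and -1.10 in WT at 8 h.

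Of 2 transporter genes among the members, UMAMIT4 (AT3G18200), from a family of amino acid transporters, had the sharpest step after 4 h apart from XTH18. It had 508, 577 and 599.8 in jmj17-1 in the dark, 369 and 354 at 2 h, 394 and 384 at 4 h, and 112 and 96.3 at 8 h. WT seedlings had 527, 504.5 and 489 in the dark, 301 and 434 at 2 h, 363 and 437 at 4 h, and 101 and 91.7 at 8 h. The 2 h and 4 h levels were close to each other in both genotypes. It fell by 2.43 ± 0.13 in jmj17-1 at 8 h against dark (adjusted p = 3.13e-10) and fell by 1.91 ± 0.14 between 4 h and 8 h (adjusted p = 4.11e-07).

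ABCG1 (AT2G39350), an ABC transporter gene of the G subfamily, took another course. Its intensity in jmj17-1 was 499.8, 501 and 517 in the dark, 246 and 244 at 2 h, 99.0 and 90.3 at 4 h, and 120.0 and 149.9 at 8 h. In WT it was 584, 579 and 613 in the dark, 550.5 and 334 at 2 h, 217 and 172 at 4 h, and 178 and 205 at 8 h. At each time the jmj17-1 arrays were below the WT arrays with no overlap. In jmj17-1 it fell by 2.42 ± 0.16 at 4 h against dark (adjusted p = 6.1e-09) and fell by 1.92 ± 0.16 at 8 h (adjusted p = 3.73e-08). The rise of 0.50 ± 0.18 from 4 h to 8 h in jmj17-1 passed at adjusted p = 0.0376. It no longer passed without either 4 h jmj17-1 array (adjusted p = 0.0822 and 0.185) or without the second 8 h one (adjusted p = 0.258).

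Regulators of transcription and growth among the members began with AT3G54500, which encodes LNK2, a clock-regulated coactivator of evening genes. It had 612, 422 and 531 in jmj17-1 in the dark, 683 and 750.4 at 2 h, 315 and 326 at 4 h, and 194 and 207 at 8 h. In WT it had 570.1, 519 and 496 in the dark, 670.1 and 822 at 2 h, 343 and 390.0 at 4 h, and 179 and 183 at 8 h. From 2 h on, each time lay below the one before in both genotypes. It fell by 1.36 ± 0.13 in jmj17-1 at 8 h (adjusted p = 1.65e-07). It was the only member among 16 measured clock genes, and of the other 15, 9 were higher and 3 lower in jmj17-1 at 8 h (31.1 percent and 47.7 percent of all probe sets). Its relative LNK1 (AT5G64170) was 2.17 above dark in jmj17-1 and 2.15 in WT at 2 h, and was still higher at 8 h in jmj17-1, by 1.14 ± 0.12 (adjusted p = 6.32e-07).

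CYCP3;2 (AT3G60550), a P-type cyclin gene, had 42.5, 60.4 and 46.9 in jmj17-1 in the dark, 171 and 146 at 2 h, 27.8 and 29.3 at 4 h, and 17.9 and 16.9 at 8 h. Its WT levels were 49.4, 43.4 and 47.3 in the dark, 188 and 206 at 2 h, 23.1 and 25.3 at 4 h, and 16.3 and 16.1 at 8 h. All arrays at 2 h were above and all later ones below the dark arrays. It fell by 1.504 ± 0.12 in jmj17-1 at 8 h against dark (adjusted p = 2.72e-08). At -1.52 in WT at 8 h, CYCP3;2 and AT4G30670 are the members closest to the threshold for that time, and MYB55 at -1.48 and AT3G05900 at -1.47 lie just outside. CCR3 (AT3G55950), a receptor-like kinase gene related to CRINKLY4, had 36.05 and 35.3 in jmj17-1 at 8 h against 139.8, 138 and 153 in jmj17-1 in the dark, and fell by 2.01 ± 0.09 (adjusted p = 5.79e-11).

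Some named members have no settled role. AT1G12080 had 3982, 4516 and 4268 in jmj17-1 in the dark, 2674 and 2825 at 2 h, 1765 and 1706 at 4 h, and 667 and 705 at 8 h. In WT it had 3406, 4188 and 3650.2 in the dark, 2582 and 2788 at 2 h, 1829 and 1746 at 4 h, and 556 and 568 at 8 h. It stepped down at each time in both genotypes, and fell by 2.63 ± 0.09 in jmj17-1 at 8 h (adjusted p = 2.4e-12), exceeded by XTH18 only. AT3G12710, annotated as a DNA glycosylase of base excision repair, fell by 2.07 ± 0.10 (adjusted p = 5.52e-11) and AT4G30670 fell by 1.21 ± 0.10 (adjusted p = 4.92e-08) in the same comparison.

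The 6 members without a lower call between 4 h and 8 h in jmj17-1 were AT1G77330 and ABCG1, which rose, AT1G44830, AT2G36220, AT5G67020 and AT5G14230, the last an ankyrin repeat protein gene. AT2G36220 had 257 and 242 at 8 h against 266 and 247 at 4 h in jmj17-1 (-0.04 ± 0.14, adjusted p = 0.857), with 735, 601 and 821 in jmj17-1 in the dark. AT5G67020 had 30.5 and 22.6 at 8 h against 30.2 and 29.9 at 4 h (-0.19 ± 0.15, adjusted p = 0.332). In WT it had 31.2 and 25.3 at 8 h against 21.7 and 24.3 at 4 h, the only member with a higher mean at 8 h than at 4 h. AT5G14230 had 32.9 and 31.1 at 8 h and 43.3 and 34.4 at 2 h in jmj17-1, and was the 1 member without a call between those times (-0.27 ± 0.13, adjusted p = 0.0798). AT5G67020 and AT1G44830 with TCH3 complete the 11 members above dark at 2 h, and these 3 were named after their values were seen.

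The remaining 10 members are MLP165, a major latex protein relative, AT4G18970, a lipase-like gene, AT2G34300, a putative methyltransferase of the Golgi, AT1G63220, a calcium-dependent lipid-binding protein gene, XIF, a myosin XI gene, AT1G65920, a FYVE-domain protein gene, UDG4, AT3G54120, a reticulon-like gene of the endoplasmic reticulum, AtHB23, a homeobox gene, and AT4G35320. All 10 were below dark at 2 h in WT, by -0.47 to -0.16. In jmj17-1 all 10 were lower at 8 h than in the dark, by -2.17 to -1.47 (adjusted p at most 1.02e-07), and at 4 h, by -1.19 to -0.41 (adjusted p at most 0.00072). All 10 also fell from 4 h to 8 h, by -1.36 to -0.59 (adjusted p at most 0.0118). None differed between genotypes at 4 h, where the smallest adjusted p was 0.166.

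Genotypes were tested against each other at 4 h of light, the only time whose WT arrays did not choose the members. There 4 of the 33 members were lower in jmj17-1 and none was higher, while 1.85 percent of all probe sets were lower and 0.862 percent higher (limma, adjusted p under 0.05). The median difference of the members was -0.19 and that of all probe sets -0.01. Called or not, 24 of the 33 had a difference below 0, a share not computed over all probe sets. The number of calls depended on single arrays, for all probe sets too. It was 3 without the first jmj17-1 array at 4 h (0.745 percent of all probe sets called) and 0 without the second (0.161 percent). Without the first WT array at 4 h it was 2 (1.29 percent), without the second 1 (1.66 percent), and 1 when only the arrays of that time were fitted (1.75 percent).

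ABCG1 had 99.0 and 90.3 in jmj17-1 against 217 and 172 in WT at 4 h, a difference of -1.03 ± 0.18 (n = 2 and 2, limma adjusted p = 0.007). Its differences at the other times, which are descriptions with no test, were -0.23 in the dark, -0.81 at 2 h and -0.51 at 8 h. For AT1G77330, the values of 351 and 318 in jmj17-1 against 493 and 659.8 in WT gave -0.77 ± 0.13 (adjusted p = 0.00838), between -0.21 at 2 h and 0.34 at 8 h. The 2 genes have in common that they were the only members to rise from 4 h to 8 h in jmj17-1. That rise and the difference from WT at 4 h both use the jmj17-1 arrays at 4 h, so neither adds to the other.

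cwINV6 (AT5G11920), a fructan exohydrolase from the family of wall invertases, differed in another way. In jmj17-1 it had 36.1, 33.9 and 33.97 in the dark, 47.2 and 48.5 at 2 h, 34.3 and 28.99 at 4 h, and 26.9 and 21.6 at 8 h. The WT arrays had 67.6, 66.2 and 79.0 in the dark, 99.0 and 97.5 at 2 h, 43.8 and 54.5 at 4 h, and 20.8 and 23.8 at 8 h. The jmj17-1 arrays lay below the WT arrays in the dark, at 2 h and at 4 h, and overlapped them at 8 h. The difference at 4 h was -0.63 ± 0.13 (adjusted p = 0.0187), beside -1.03 in the dark, -1.04 at 2 h and 0.12 at 8 h. From its lower start, cwINV6 fell by 0.52 ± 0.12 in jmj17-1 at 8 h against dark (adjusted p = 0.001), the smallest fall of the 33, and its change at 4 h was -0.13 ± 0.12 (adjusted p = 0.316).

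AT2G28460, a zinc-binding protein gene of the cysteine- and histidine-rich C1 type, had 26.1 and 26.8 in jmj17-1 against 36.8 and 34.7 in WT at 4 h (-0.43 ± 0.10, adjusted p = 0.037). In the dark its levels overlapped, with 54.6, 55.6 and 58.6 in jmj17-1 and 53.6, 56.7 and 60.8 in WT. For the 27 members with an adjusted p above 0.1 at 4 h the difference lay between -0.52 for XTH18 and 0.39 for AT5G67020, and TCH3 (-0.50 ± 0.14, adjusted p = 0.083) and AT5G14230 (-0.42 ± 0.13, adjusted p = 0.0969) came closest to the threshold.

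**Figure D4:**
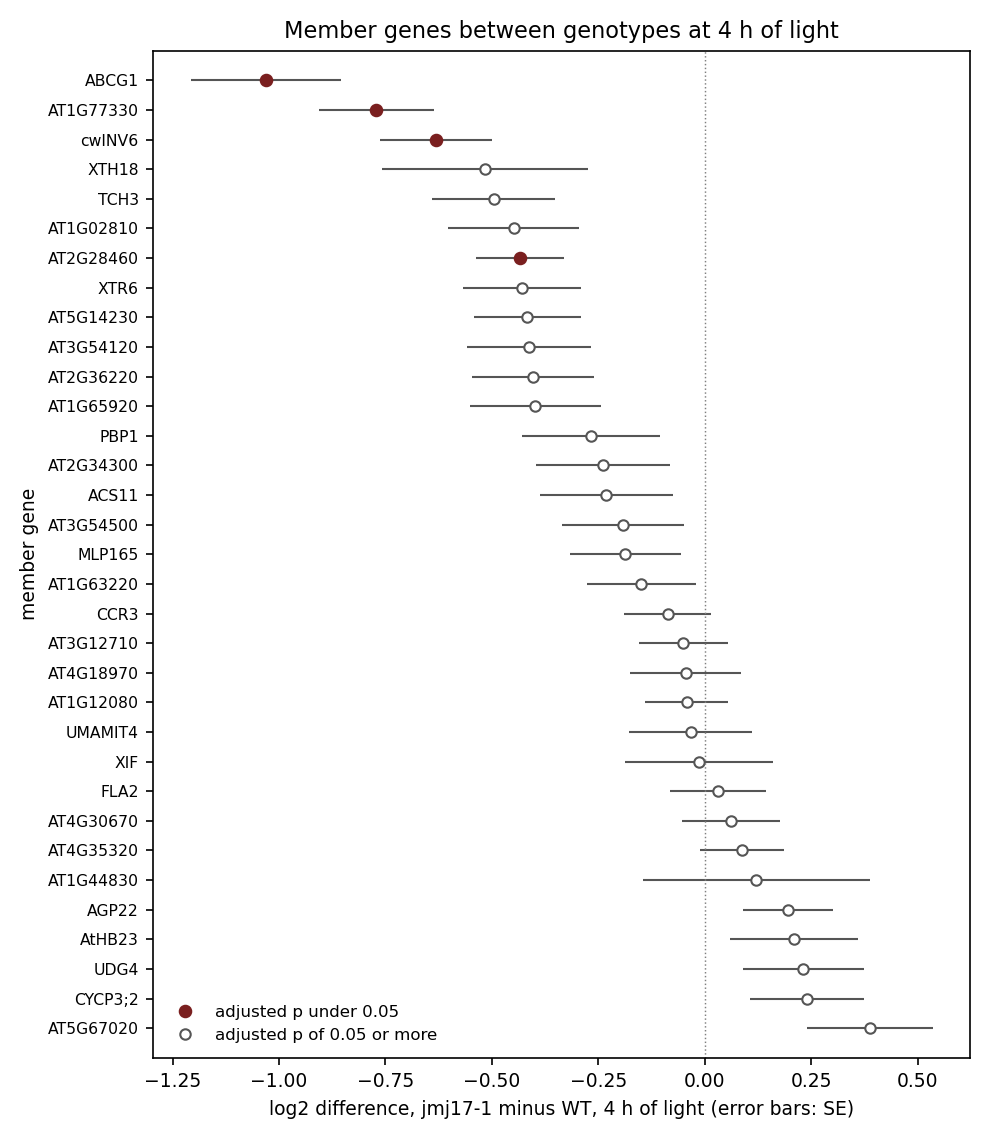
Log2 difference between jmj17-1 and WT at 4 h of light (horizontal axis) for each of the 33 members (vertical axis), with the standard error of the fit as bars (2 arrays a group). Filled points are the 4 members that passed, ABCG1, AT1G77330, cwINV6 and AT2G28460, all lower in jmj17-1.

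At the times whose WT arrays chose the members, the genotypes are only described. At 2 h, 17 members were lower in jmj17-1 without overlap and 6 higher, where 33.4 percent of all probe sets were lower and 20.2 percent higher. At 8 h, 18 members were higher in jmj17-1 without overlap and 2, ABCG1 and AT1G65920, were lower, where 24.4 percent of all probe sets were higher and 25.3 percent lower. The largest differences at 8 h were 0.79 for AGP22 and 0.71 for XTH18 and XTR6. Since WT values at 2 h and 8 h made a gene a member, neither count can be read as a property of the mutant. In the dark, 6 members were higher and 4 lower in jmj17-1 without overlap, where 14.2 percent of all probe sets were higher and 9.80 percent lower.

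The list of dark growth and shade genes contains no member, although 13 of its 14 measured genes were lower and 1 higher in jmj17-1 at 8 h (47.7 percent and 31.1 percent of all probe sets, list median -2.43). Most of those genes were already low at 2 h, such as PRE1, a bHLH-type regulator of cell elongation, at -2.68 in jmj17-1 and -3.17 in WT. YUC8, an auxin synthesis gene, deepened late, at -0.96 in jmj17-1 and -0.79 in WT at 2 h and -2.47 in jmj17-1 and -2.23 in WT at 8 h. Of the 16 gene lists considered, 14 hold no member.

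Over the 8 group means, the genes outside the set with the course most like the mean centred course of the members were ACA.l (r = 0.975), AT5G51670 (r = 0.972), AT4G23460 (r = 0.968), TUB1 (r = 0.967) and AT4G16900 (r = 0.964). These 8 points share the arrays that chose the members, so the values are descriptions. In WT at 8 h, 4 of the 5 changed less than the members, by -1.22 to -0.65, and TUB1, a beta-tubulin gene, more, by -4.27. Among the members themselves AT1G02810 was closest to the mean course (r = 0.985) and ABCG1 furthest from it (r = 0.747).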

How the data were processed

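Total RNA of whole seedlings was labelled with biotin and hybridised to ATH1 arrays, per the labels' protocols, and the submitters' processing notes name GCOS 1.4. RMA with quantile normalization was applied by the authors, per the file headers. The deposited table holds intensity on a linear scale for 6847 of 22810 probe sets, and its header calls these values raw. A second deposited table holds log2 values of all probe sets, but 16 of its 18 columns equal the table column of another sample title, so it served only as an alternative, and which pairing is right is not settled. Per the file headers, the authors kept the 6847 by a moderated t-test at a p-value of at most 0.05 and a fold change of at least 1.0, for a comparison the headers do not name.

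Intensities were taken as log2 and fitted with limma 3.58.1 in R 4.3.3 (lmFit, contrasts.fit, eBayes), with 8 group means over all 18 arrays and Benjamini-Hochberg adjustment over all 6847 probe sets. A call is an adjusted p under 0.05. Errors are standard errors of the fit. The number of arrays limits the precision. No further background correction, normalization or filter was applied. The fit was tested on simulated data.

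The members and gene lists were chosen with earlier results of these data known. Members named with values were the 12 lowest at 8 h in WT, those in a gene list, those called between genotypes at 4 h, the 3 largest and 3 smallest falls in jmj17-1 at 8 h, and those next to a threshold; AT3G60550 is CYCP3;2. All 33 loci matched RefSeq. Alternatives covered arrays left out, a filter on the dimmest 40 percent, array weights, the replicate block and other member thresholds.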

Additional observations from a re-analysis of the deposited data

How the results depend on the processing

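Leaving out each array in turn gave 33 to 33 members lower in jmj17-1 at 8 h against dark, 29 to 31 at 4 h against dark, 32 to 33 from 2 h to 8 h, 24 to 27 from 4 h to 8 h, and 0 to 6 differing between genotypes at 4 h. The share of all probe sets called moved as well. With 1 dark array left out it was 45.9 to 47.7 percent at 8 h and 42.5 to 44.2 percent at 4 h. Those fits gave 30.4 to 33.1 percent from 2 h to 8 h and 19.2 to 22.2 percent from 4 h to 8 h. Between genotypes they gave 2.12 to 4.91 percent, the highest in the fit with 6 member calls. Leaving out a light array leaves 1 in its group, so no share is given here for those fits. The lowest counts from 4 h to 8 h and between genotypes came from such fits. The shares above are thus not the background of those counts. Without the dimmest 40 percent of probe sets 17 members were left, with 17, 16, 17, 14 and 2 calls in the same order (49.1, 45.8, 32.5, 20.4 and 2.09 percent of all probe sets). With members at -2 or below at 8 h in WT (8 genes) the counts were 8, 8, 8, 7 and 1, at -1 or below (142 genes) 139, 127, 132, 98 and 7, and with a 2 h minimum of -0.25 (12 genes) 12, 10, 12, 10 and 1. In these member settings the shares of all probe sets stay 47.7, 44.4, 31.3, 20.0 and 2.72 percent. With the arrays of both genotypes at 4 h alone, 1 member differed (1.75 percent).

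With the second deposited table, its columns matched to samples by their values, the counts in the same order were 33, 29, 32, 26 and 3. Of all its 22810 probe sets, 25.5, 19.9, 16.2, 9.60 and 0.614 percent were then called. With that table under its own labels, the counts were 0 at 8 h, 0 at 4 h, 26 from 2 h to 8 h, 16 from 4 h to 8 h and 0 between genotypes. The shares of all probe sets called under those labels were 0.00, 0.912, 10.3, 1.34 and 0.00 percent. Values then turned at 8 h for AT1G77330 (0.106), AT2G36220 (0.0406), AT2G28460 (0.00259) and ABCG1 (0.493), and at 4 h for the median (1.28), XTH18 (4.02), AT1G77330 (1.63), TCH3 (2.39), cwINV6 (1.42), ABCG1 (1.21) and XTR6 (1.92). From 4 h to 8 h they turned for AT1G77330 (-1.53) and ABCG1 (-0.712), and between genotypes for cwINV6 (0.226). By construction this setting exchanges columns between groups. Leaving out 1 array turned the sign of XTR6 at 4 h (range -0.273 to 0.0564) and, from 4 h to 8 h, of AT2G36220 (range -0.0934 to 0.015, with 0.00452 between) and AT5G67020 (range -0.411 to 0.0238), none of them called in the fit to all arrays.

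Groups share only 2 replicate numbers and same-numbered arrays correlated at -0.158 to 0.136, so the numbers were not taken to pair the arrays. With the replicate block the counts were 33, 29, 32, 27 and 5 (46.6, 43.2, 31.2, 19.9 and 2.70 percent of all probe sets). With the numbers crossed, a setting chosen after seeing the data, 27 members were lower from 4 h to 8 h (19.8 percent). Over all alternatives 118 counts stayed within 1.5 times and 28 did not. The 28 include every count under the dim filter and the other member thresholds. In those settings the number of members tested changed too, and the share called did not stay fixed. Between genotypes it was 12.1 percent of the 33 members and 4.93 percent of the 142 at -1 or below. At 8 h against dark it was 100 and 97.9 percent. The cause of the changes was not tested. Levels near the dimmest probe sets limit the size of falls of AT1G02810, ACS11, AtHB23 and PBP1.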

Other observations

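In the second deposited table, with columns matched to samples by their values, 38 probe sets outside the 6847 met the same WT thresholds. Their WT differences at 2 h ran from -0.49 to 0.82 with a median of -0.06, and 19 of the 38 lay within 0.25 of dark, against 1 of the 33 members. At 8 h their median was -1.61 in jmj17-1 and -1.79 in WT. These values chose the probe sets and carry no test. They are not named here.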
